A study of Mus musculus with 3 samples.

Results

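Expression of 7 genes of the mouse Ly6 family and of monocyte entry (Ly6c2, Ly6c1, Ly6a, Ly6e, Ly6i, Plac8 and Ifitm6) was followed in monocytes and macrophages of healing skin wounds. The members were chosen by name, from the gene symbols of the deposited count tables, and are 7 of the 31053 genes counted. The wounded animals were male mice of the inbred strain C57BL6/J, and the time points are day 3, day 6 and day 10 post-injury. Each day has 1 droplet single-cell library, made after enzymatic digestion from the pooled wounds of 2 mice per the labels, so that the animals of a pool cannot be told apart. No treatment, transgene or other genotype is named in the labels, and no unwounded skin is among the samples used here. With 1 library a day there was no test between days: every interval given is a 95% interval that covers counting error only, and the spread between mice is unknown.

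Ly6 proteins are small cell-surface proteins held in the membrane by a lipid (GPI) anchor. Mouse blood monocytes of the classical kind carry Ly6C at high level, enter injured tissue through the chemokine receptor Ccr2, and lose Ly6C as they become macrophages. Ly6c2 encodes the Ly6C of monocytes, while its close paralog Ly6c1 is best known from endothelium and some lymphocytes. Ly6a encodes Sca-1, a marker of stem and progenitor cells, of endothelium and of cells exposed to interferon, and Ly6e encodes a widely expressed family member known from studies of virus entry. Ly6i is a paralog of these that has been studied less. Plac8 encodes a small cysteine-rich protein abundant in classical monocytes and some other leukocytes, and Ifitm6 belongs to the interferon-induced transmembrane family, some members of which restrict viruses at the cell membrane.

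The 5 Ly6 members lie within 156.9 kb of chromosome 15 (GRCm38, the assembly that mm10 names, with GENCODE vM21 genes): Ly6e at chr15:74955051-74959905 on the plus strand, then on the minus strand Ly6i at chr15:74979534-74983430, Ly6a at chr15:74994877-74998031, Ly6c1 at chr15:75044018-75048830 and Ly6c2 at chr15:75108158-75111970. Plac8 lies at chr5:100553725-100572245 and Ifitm6 at chr7:141015699-141017924, both on the minus strand. No other annotated gene overlaps any of the 7. The last 300 bases of the Ly6c1 and Ly6c2 transcripts, the part that is read if the libraries are of the 3′ kind (the labels do not say), were identical at 93.5% of aligned positions, so UMIs of one could be lost or assigned to the other, and the low counts of Ly6c1 are uncertain for that reason. The same comparison gave 80.8% to 84.9% between the other pairs among Ly6c1, Ly6c2, Ly6a and Ly6i, and 49.9% to 52.0% for Ly6e against these 4.

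Promoter windows from RefSeq (GRCm38.p6, 250 bases before to 50 bases after the start of the gene) were matched for 4 of the 7 members and are shown because 3 of these 4 genes were lower after day 3 and the fourth, Ly6c1, was not. The window of Ifitm6 lies inside the gene as GENCODE places it, so RefSeq puts its start downstream of that of GENCODE, and positions in this window are counted from the RefSeq start. The windows are printed 5′ to 3′ on the strand of the gene, the first listed window where the table has 2, with the bases in capitals marking each match to the searched motifs GAGGAA (the core bound by PU.1, a factor of myeloid cells) and TTCNNNGAA (the gamma-activated site bound by STAT factors).
Ly6c2, chr15:75111922-75112221, minus strand: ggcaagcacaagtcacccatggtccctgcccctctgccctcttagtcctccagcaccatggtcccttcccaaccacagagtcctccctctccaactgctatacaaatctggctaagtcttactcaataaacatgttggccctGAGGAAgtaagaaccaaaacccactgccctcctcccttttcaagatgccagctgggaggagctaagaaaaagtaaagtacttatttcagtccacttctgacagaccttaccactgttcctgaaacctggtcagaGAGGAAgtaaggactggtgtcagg
Ly6c1, chr15:75048788-75049087, minus strand: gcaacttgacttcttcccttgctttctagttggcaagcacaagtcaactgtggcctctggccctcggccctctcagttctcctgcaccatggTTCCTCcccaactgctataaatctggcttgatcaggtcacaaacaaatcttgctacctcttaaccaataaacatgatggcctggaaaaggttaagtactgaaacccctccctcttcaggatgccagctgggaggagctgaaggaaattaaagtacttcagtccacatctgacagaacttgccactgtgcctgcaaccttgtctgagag
Plac8, chr5:100572156-100572455, minus strand: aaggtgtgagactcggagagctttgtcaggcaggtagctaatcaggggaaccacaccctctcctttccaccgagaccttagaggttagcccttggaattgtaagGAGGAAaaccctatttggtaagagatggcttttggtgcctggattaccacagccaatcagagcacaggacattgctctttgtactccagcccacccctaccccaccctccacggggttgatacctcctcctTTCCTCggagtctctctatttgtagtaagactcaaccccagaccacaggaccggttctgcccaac
Ifitm6, chr7:141016843-141017142, minus strand: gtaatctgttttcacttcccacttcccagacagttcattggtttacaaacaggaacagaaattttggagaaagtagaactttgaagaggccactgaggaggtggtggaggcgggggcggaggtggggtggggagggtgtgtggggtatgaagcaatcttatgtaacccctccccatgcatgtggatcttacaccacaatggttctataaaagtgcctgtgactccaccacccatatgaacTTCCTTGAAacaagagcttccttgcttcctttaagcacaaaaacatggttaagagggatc
GAGGAA was found on either strand in the windows of Ly6c2, Ly6c1 and Plac8, and 28.3% of all 27025 windows of this length held it. In Ly6c2 it begins 108 bases before the start and again 26 bases after it, in Plac8 it begins 146 bases before the start, and on the opposite strand it was found 15 bases before the start of Plac8 and 158 bases before that of Ly6c1. TTCNNNGAA was found in Ifitm6 alone of the 4, with its first base 10 bases before the start, and in 8.47% of all windows. GAAANNGAA, the interferon-response core, had no match in the 4 windows and was found in 8.57% of all, and TTGCNNAA, the C/EBP core, had no match and was found in 10.8%. The aligned windows of Ly6c1 and Ly6c2 were identical at 62.9% of 340 columns. A match describes letters in a window and shows neither binding nor a cause, and these motifs do not overlap each other in the 4 windows.

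The libraries held 11199361, 9273960 and 13972817 UMIs (unique molecular identifiers, each counting 1 captured mRNA molecule) in 1472, 1196 and 2209 barcodes on day 3, day 6 and day 10, of which 900, 598 and 1362 cells passed the filter. Cells were clustered and 762, 441 and 1139 of them were named monocyte/macrophage-like from a marker list, called the class here, with 7561925, 4577951 and 9069171 UMIs. The median UMIs per cell of the class were 9962, 9371 and 7625. No barcode was shared by the day 3 library and either other library, and 2 barcodes were shared by those of day 6 and day 10. Of the neutrophil markers, Ly6g was at 0 in the class on all 3 days and the list summed to 211, 407 and 191 CPM (UMIs of a gene scaled to 1000000 UMIs of the class), led by S100a8. Markers of red cells and platelets summed to more, 912, 5615 and 3772 CPM, led by Pf4. Without Pf4 they summed to 72.9, 2801 and 40.9 CPM, so that day 6 stood apart. Cells flagged for hemoglobin UMIs numbered 0, 4 and 0 on day 3, day 6 and day 10. T cell markers summed to 0.397, 3.71 and 2.54 CPM with Cd3e at 0. B cell markers summed to 63.1, 41.3 and 35.2 CPM, led by Ighm at 58.1, 30.8 and 25.3 CPM, with Ms4a1 at 0.

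Day 3 was the day of highest expression for 6 of the 7 members, and Ly6c1 was the exception. Ly6c2 stood at 709.5 CPM on day 3 (690.6 to 728.7), 90.2 CPM on day 6 (81.7 to 99.4) and 89.0 CPM on day 10 (83.0 to 95.3). Day 3 stood apart, and the intervals of day 6 and day 10 overlapped. Plac8 had 2310 CPM on day 3 (2276 to 2345), 251.6 CPM on day 6 (237.3 to 266.6) and 364.4 CPM on day 10 (352.1 to 377.1). Ifitm6 had 397.9 CPM on day 3 (383.8 to 412.4), 33.9 CPM on day 6 (28.7 to 39.6) and 103.4 CPM on day 10 (96.9 to 110.3), so that its lowest level was on day 6. These levels compare a gene between days, and they were not divided by gene length.

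Among the other Ly6 genes, Ly6e had 1704 CPM on day 3 (1675 to 1734), 545.4 CPM on day 6 (524.3 to 567.3) and 469.1 CPM on day 10 (455.1 to 483.4). Ly6a had 211.3 CPM on day 3 (201.1 to 221.9), 98.3 CPM on day 6 (89.4 to 107.8) and 42.7 CPM on day 10 (38.5 to 47.1). These CPM intervals did not overlap, but they do not cover how unevenly the UMIs are spread over cells. On day 6, 1 cell held 55 of the 450 Ly6a UMIs. Ly6i rested on few UMIs, at 16.8, 4.15 and 7.17 CPM on day 3, day 6 and day 10, from 127, 19 and 65 UMIs. Ly6c1 was lowest on day 3, at 1.46 CPM from 11 UMIs, and had 11.6 CPM from 53 UMIs on day 6 and 5.62 CPM from 51 UMIs on day 10.

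**Figure D1:**
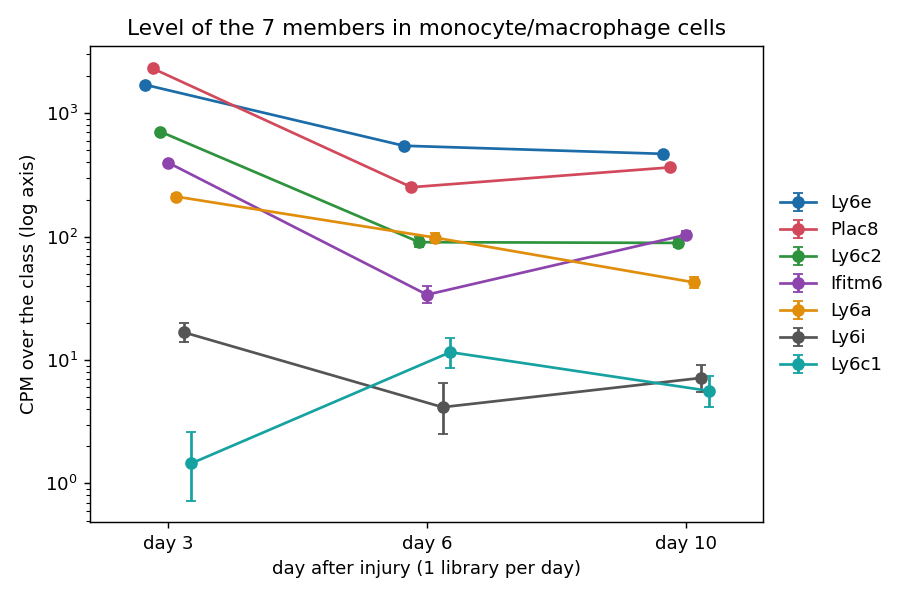
CPM of each member (log axis) over the cells of the class in the library of each day, with 95% Poisson intervals for counting error. The lines of 6 members start at their highest point on day 3, Ly6c2 at 709.5 CPM and Plac8 at 2310 CPM, and the line of Ly6c1 starts at its lowest, 1.46 CPM.

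Between day 10 and day 3, 6 of the 7 members were at least 1.5-fold lower, where 11% of the 10757 genes compared were, and 1 was at least 1.5-fold higher, where 27.3% of genes were. The median log2 ratio of the members was -1.94, beside 0.18 over all genes compared. Ly6c2 was 7.97-fold lower on day 10 than on day 3 (7.403 to 8.60) and Plac8 6.34-fold lower (6.11 to 6.58). Only 0.26% of the genes compared had a lower ratio than Ly6c2, and 0.446% a lower ratio than Plac8. Ly6a was 4.95-fold lower (4.43 to 5.55), Ifitm6 3.85-fold (3.57 to 4.14), Ly6e 3.63-fold (3.51 to 3.76) and Ly6i 2.34-fold (1.725 to 3.21). Ly6c1 was 3.87-fold higher on day 10 (1.99 to 8.23), and 1.78-fold higher with no cell filter. Ly6c2 and Plac8 are 2 of the 29 markers that name the class, and 6 members were also lower when cells were clustered and named without them.

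Between day 6 and day 3, again 6 members were at least 1.5-fold lower and 1 was higher, where 10.7% and 31.7% of the 10312 genes compared were, with a median log2 ratio of -2.02 beside 0.25 over all genes. Ifitm6 and Plac8, not Ly6c2, had the largest differences here: Ifitm6 was 11.75-fold lower on day 6 (10.0 to 13.9) and Plac8 9.18-fold lower (8.65 to 9.75), while Ly6c2 was 7.86-fold lower (7.11 to 8.71). Over all kept cells, dendritic-cell-like cells included, the log2 ratio of Ifitm6 was -1.87 in place of -3.55 and that of Plac8 -2.52 in place of -3.20. Ly6i was 4.05-fold lower (2.49 to 6.94), Ly6e 3.13-fold (2.99 to 3.26) and Ly6a 2.15-fold (1.94 to 2.39). Ly6c1 was 7.96-fold higher on day 6 (4.11 to 16.9).

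Day 10 against day 6 divided the members. At least 1.5-fold lower on day 10 were Ly6a, 2.304-fold (2.01 to 2.65), and Ly6c1, 2.06-fold (1.38 to 3.09), which is 2 of 7 where 12.1% of the 10761 genes compared were lower. At least 1.5-fold higher on day 10 were Ifitm6, 3.055-fold (2.58 to 3.64), and Ly6i, 1.73-fold (1.02 to 3.05), again 2 of 7 where 6.77% of genes were higher. Plac8 was 1.45-fold higher (1.35 to 1.55), and the ratios of Ly6c2, 0.986 (0.875 to 1.11), and Ly6e, 0.860 (0.818 to 0.904), were nearer to 1. The difference of Ifitm6 had a log2 ratio of 0.51 over all kept cells, in place of 1.61, and that of Ly6i 0.50 with the unnamed clusters counted, both under 1.5-fold. The lower level of Ly6c1 on day 10 went to a log2 ratio of -0.48, in place of -1.04, when the cluster led by Slfn4 and Rsad2 was left out.

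A sum over cells cannot by itself tell fewer expressing cells from less RNA per cell, so members were also counted per cell, with each cell thinned to 2000 UMIs and 21, 44 and 86 shallower cells of day 3, day 6 and day 10 left out. Ly6c2 was detected in 47.0% of 741 cells on day 3 (43.3 to 50.6%), in 7.56% of 397 cells on day 6 (5.16 to 10.6%) and in 6.17% of 1053 cells on day 10 (4.80 to 7.80%). Unthinned shares were 67.2%, 10.7% and 10.0%. The mean count per Ly6c2+ cell was 2.92, 2.37 and 2.29 UMIs. This mean cannot be under 1 UMI, which limits how far it can differ between days, so it was not weighed against the shares. Fewer expressing cells and less RNA per cell were therefore not told apart. Dendritic-cell-like cells led by Ccl22, which should lack Ly6c2, had it in 0 of 21 cells, at a median of 12885 UMIs before thinning. This allows a share of up to 14.3% (3 counts of the total), or up to 16.1% by the Clopper-Pearson interval. The larger dendritic-cell-like group led by Cd7 and Flt3 had Ly6c2 in 3.33% of 240 cells (1.45 to 6.46%), at a median of 15252 UMIs before thinning. In the clusters made without the members the same kind of cells had it in 10.1% of 69 cells on day 3, 0 of 88 on day 6 and 5.26% of 114 on day 10 (1.96 to 11.1%). The class-wide share of day 10 is thus not told apart from the dendritic-cell-like share of that day.

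Plac8 was detected in 81.2%, 12.3% and 12.7% of thinned cells on day 3, day 6 and day 10, with means of 5.35, 4.04 and 5.09 UMIs per Plac8+ cell, and unthinned in 88.4%, 18.6% and 15.8%. Ifitm6 was detected in 40.9%, 3.53% and 8.93% (unthinned 67.5%, 10.4% and 12.6%), and the intervals of day 10 (7.27 to 10.8%) and day 6 (1.94 to 5.85%) did not overlap. In the dendritic-cell-like cells led by Cd7, Plac8 and Ifitm6 were each detected in 39.2% of 240 thinned cells. In those led by Ccl22, Plac8 was detected in 2 of 21 thinned cells and Ifitm6 in 0 of 21. For Ifitm6 this allows a share of up to 14.3% (3 counts of the total), or up to 16.1% by the Clopper-Pearson interval. Ly6e was the most widely detected member, in 90.4%, 49.1% and 44.4% of thinned cells. Ly6a was detected in 20.9%, 8.82% and 5.603%, Ly6i in 3.91%, 0.252% and 1.14%, and Ly6c1 in 0.135%, 1.26% and 0.38%. The Ly6a intervals of day 6 (6.22 to 12.05%) and day 10 (4.29 to 7.17%) overlapped, unlike those of its CPM. Counts were concentrated in few cells after day 3: the 50% of Ly6c2 UMIs from the highest cells came from 78 of 762 cells on day 3, 7 of 441 cells on day 6 and 18 of 1139 cells on day 10. For Plac8 the corresponding numbers were 140, 11 and 30 cells.

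Cells with several members were common on day 3 and rare later. At least 4 of the 7 members were detected in 227 of 741 cells on day 3, or 30.6% (27.3 to 34.1%), in 8 of 397 on day 6, or 2.02% (0.874 to 3.93%), and in 36 of 1053 on day 10, or 3.42% (2.41 to 4.70%). The share depends on depth and was 63.6%, 6.12% and 7.99% without thinning, with day 3 highest at every depth tried. A cell had on average 2.85, 0.829 and 0.793 members, and 2.56%, 44.6% and 49.8% of cells had none. No cell had all 7.

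**Figure D2:**
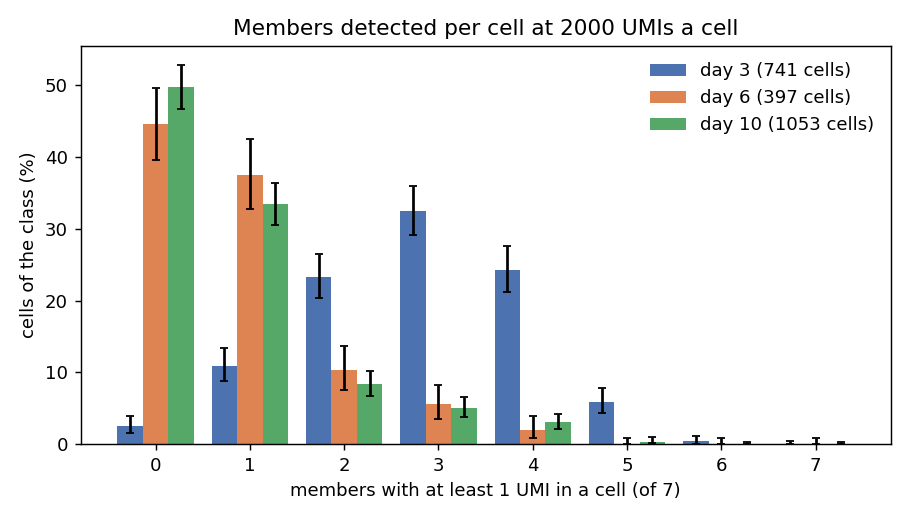
Percent of cells of the class (y axis) by the number of the 7 members with at least 1 UMI in the cell (x axis), each cell thinned to 2000 UMIs, with 95% Clopper-Pearson intervals. On day 3 the most frequent number was 3 members (32.5% of cells), and on day 6 and day 10 it was 0 (44.6% and 49.8%).

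On day 6 and day 10, each pair among Ly6c2, Plac8 and Ifitm6 shared more cells than independent detection would give. On day 10, Plac8 was detected in 81.5% of the 65 Ly6c2+ cells (70.0 to 90.1%) and in 8.20% of the 988 Ly6c2- cells, and 53 cells had both where 8.27 would have had both if detection were independent, a ratio of 6.41. On day 6 the ratio was 4.86, from 18 cells with both, and on day 3 it was 1.13, from 320 cells with both, where Plac8 was detected in most cells, which holds the ratio near 1. Ly6c2 and Ifitm6 gave ratios of 1.17, 5.67 and 7.41 on day 3, day 6 and day 10, from 166, 6 and 43 cells, and Plac8 and Ifitm6 gave 1.12, 6.95 and 6.19, from 276, 12 and 74 cells. All 3 genes were detected together in 21.1% of cells on day 3 (156 cells), 1.51% on day 6 (6 cells) and 3.99% on day 10 (42 cells). Ifitm6 was detected in 66.2% of Ly6c2+ cells on day 10 (53.4 to 77.4%) and in 47.7% on day 3 (42.4 to 53.1%). Of the 30 Ly6c2+ cells of day 6, 12 had neither Plac8 nor Ifitm6. The counts of day 6 are small, and all cells of a day share 1 library.

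Ly6a gave lower ratios with these genes on day 10, when 5 cells had both Ly6a and Ly6c2 where independence gives 3.64, a ratio of 1.37, and only 3 of the 59 Ly6a+ cells had Plac8 where independence gives 7.51, a ratio of 0.40. At 4000 UMIs a cell the ratio of Ly6a and Plac8 was 0.962, close to what independence gives. On day 6 the ratio of Ly6a was 1.89 with Ly6c2, from 5 cells with both, and 1.39 with Plac8, from 6 cells, and on day 3 it was 1.22 with Ly6c2 and 1.06 with Plac8. Ly6e was detected in 94.5%, 90.0% and 84.6% of Ly6c2+ cells on day 3, day 6 and day 10, and in 72.9% of Ly6a+ cells on day 10.

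The Ly6c2+ cells and the Ly6a+ cells also differed in C1qa, a complement gene of mature macrophages. C1qa was detected in 16.95% of Ly6c2+ cells and 18.3% of Ly6c2- cells on day 3, in 13.3% and 62.9% on day 6, and in 9.23% (3.46 to 19.0%) and 59.1% (56.0 to 62.2%) on day 10. In Ly6a+ cells it was detected in 28.4% (21.44 to 36.18%), 48.6% (31.38 to 66.01%) and 72.9% (59.73 to 83.64%) on day 3, day 6 and day 10. In Ly6a- cells the shares were 14.85% (12.07 to 17.99%), 60.22% (54.97 to 65.3%) and 55.03% (51.88 to 58.15%). Ly6a+ cells thus had the higher share on day 3 and day 10, and the intervals overlapped on day 6. The share was higher on both later days than on day 3 in Ly6a- cells too. The chemokine receptor Ccr2 was detected in 81.5% of Ly6c2+ cells and 30.6% of Ly6c2- cells on day 10. On day 6 the Ccr2 shares were 53.3% (34.3 to 71.7%) and 26.7% (22.2 to 31.5%). On day 3 they were 71.0% (65.9 to 75.7%) and 64.6% (59.7 to 69.4%), with overlapping intervals. Isg15, an interferon-induced gene, was detected in 73.5% of Ly6a+ cells and 52.2% of Ly6a- cells on day 3, in 40.0% and 13.3% on day 6, and in 15.3% (7.22 to 26.99%) and 5.63% (4.28 to 7.25%) on day 10. In Ly6c2+ and Ly6c2- cells the Isg15 shares were 59.2% and 54.5% on day 3, with overlapping intervals, 33.3% (17.3 to 52.8%) and 14.2% (10.8 to 18.2%) on day 6, and 23.1% (13.5 to 35.2%) and 5.06% (3.78 to 6.62%) on day 10.

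**Figure D3:**
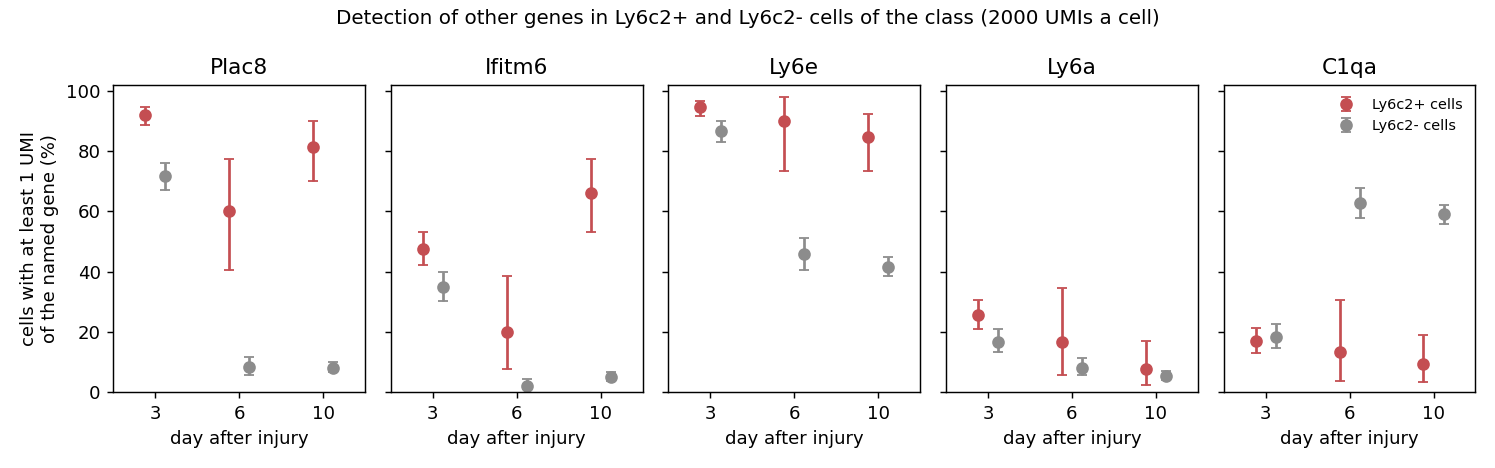
Percent of thinned cells of the class in which Plac8, Ifitm6, Ly6e, Ly6a or C1qa had at least 1 UMI (y axis), in Ly6c2+ cells (red) and Ly6c2- cells (grey) on each day, with 95% Clopper-Pearson intervals. Plac8 and Ifitm6 were far more frequent in Ly6c2+ cells on day 6 and day 10, C1qa was less frequent in them on these days, and the intervals of Ly6a overlapped on day 6 and day 10.

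Cells were then grouped into 13 clusters made without the 7 members or any other Ly6 gene, 9 of them of the class (2341 cells). Levels across these clusters are a description, since the members go with the genes that separate the clusters; Ly6c2 and Plac8 are still among the 10 leading genes of the cluster led by Dmkn, and Ifitm6 among those of the cluster led by Cd177. Ly6c2 exceeded 500 CPM in 3 clusters, those led by Dmkn, Chil3 and Hp (713 CPM, 411 cells), by Slfn4, Rsad2 and Cxcl10 (697.1 CPM, 315 cells) and by genes that include Cd177 and Hp (833.3 CPM, 135 cells). In the other 6 clusters of the class it ranged from 10.8 CPM in the cluster led by Nos2 to 71.9 CPM in the cluster led by Lyve1. Plac8 followed it, with 2545, 2260 and 2564 CPM in the 3 clusters and 7.99 to 183.7 CPM in the other 6.

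The 3 clusters differed in Ifitm6 and Ly6a. Ifitm6 had 889.6 CPM in the cluster led by Cd177 (842.1 to 939), 503.7 CPM in that led by Dmkn and 157.9 CPM in that led by Slfn4. Ly6a was lowest where Ifitm6 was highest, with 10.2 CPM in the cluster led by Cd177, 241.8 CPM in that led by Dmkn and 191.5 CPM in that led by Slfn4. Ly6a was also present where Ly6c2 was low, at 190.5 CPM in the cluster led by Lyve1 and 108 CPM in that led by Ctla2a, C1qa and Folr2. Ly6e was present in all 9 clusters, from 217.2 CPM in that led by Nos2 to 1768 CPM in that led by Dmkn, with 1102 CPM in that led by Lyve1. Across the 9 clusters the Pearson correlation of log2(CPM + 10) of Ly6c2 was 0.95 with Ifitm6, 0.94 with Plac8, 0.89 with Ly6e, 0.79 with Ly6i, 0.27 with Ly6a and -0.09 with Ly6c1. These are descriptions over 9 points that share libraries and depth.

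**Figure D4:**
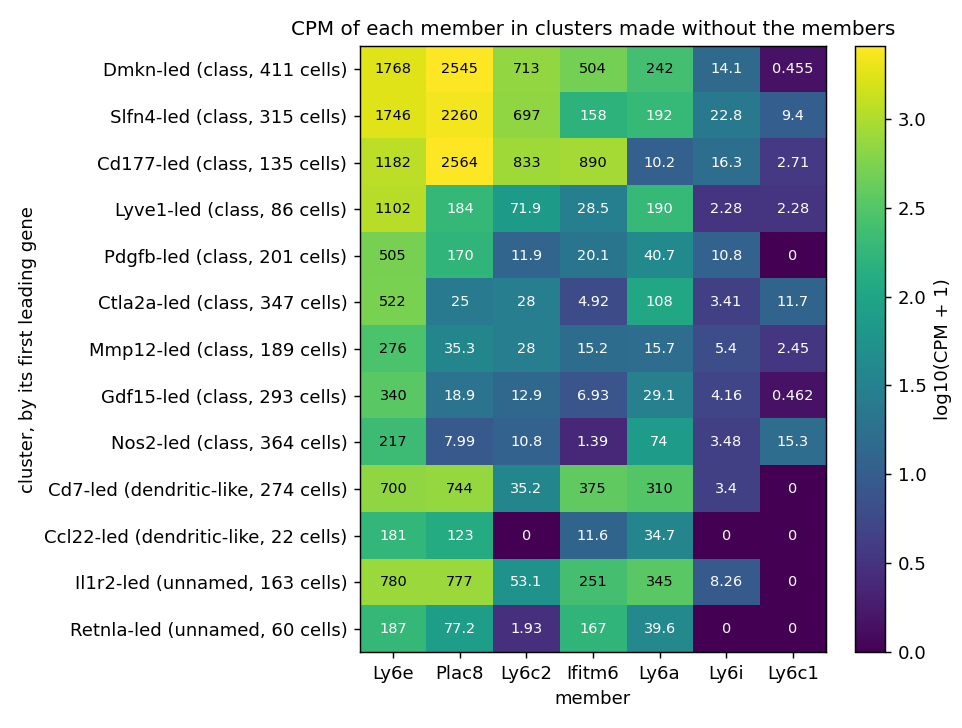
CPM of each member (columns) in the 13 clusters made without the members (rows, by first leading gene, with the number of cells), coloured by log10(CPM + 1). The rows led by Dmkn, Slfn4 and Cd177 have the highest Ly6c2 (713, 697.1 and 833.3 CPM). The dendritic-cell-like row led by Cd7 holds Plac8, Ifitm6 and Ly6a with little Ly6c2 (744, 375 and 310 CPM beside 35.2 CPM). So does the unnamed row led by Il1r2 (777, 251 and 345 CPM beside 53.1 CPM). The rows led by Ccl22 and Retnla hold less Plac8 (123 and 77.2 CPM) and Ly6a (34.7 and 39.6 CPM).

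By the same measure, over 2053 genes (2054 for Ly6c1 and Ly6i) with at least 100 CPM in 1 of the 9 clusters, ribosomal, mitochondrial and unnamed gene models left out, the genes most like Ly6c2 were Pnp (0.98), Slfn1, Ifitm3, Lman2 and Cript. Those most like Plac8 were Ifitm3 (0.99), Lyn, Ms4a4c, Eif4e2 and Rap1a, and those most like Ifitm6 included H3f3a (0.99), Cd177, Sec61b and Myd88. Ly6e was nearest to Sp110 (0.99), Epsti1, Fgl2, Sp100 and Ms4a4c, and Ly6i to Adprh (0.97), Stk40, H13, Ltb4r1 and Jarid2. Ly6a was nearest to Tet3 (0.90), Ifnar2, Fcgr4, Ankrd17 and Selenow, and Ly6c1 to Ensa (0.82), Fndc3a, Fabp4, Hdlbp and Tspan3, both with lower values than those of the other members.

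The 3 clusters over 500 CPM of Ly6c2, joined after these levels were seen, held 686 of 762 class cells on day 3, or 90.0% (87.7 to 92.1%), 54 of 441 on day 6, or 12.2% (9.33 to 15.7%), and 121 of 1138 on day 10, or 10.6% (8.90 to 12.6%). They held 98.9%, 78.4% and 92.1% of the Plac8 UMIs of the class on the 3 days, and 98.6%, 76.8% and 94.6% of those of Ifitm6. The clusters were chosen by Ly6c2, which Plac8 and Ifitm6 go with across clusters, so the levels inside and outside them are descriptions. Inside them Plac8 stood at 2502, 1546 and 2649 CPM on day 3, day 6 and day 10, and was 1.06-fold higher on day 10 than on day 3 (1.02 to 1.10), beside the 6.34-fold lower level over the whole class. Ly6c2 stood at 768.8, 410.8 and 646.8 CPM inside them and was 1.19-fold lower on day 10 than on day 3 (1.10 to 1.29). Ifitm6 was 1.77-fold higher on day 10 (1.64 to 1.91), at 761.6 CPM on day 10 against 430.5 CPM on day 3. Ly6e was 1.34-fold lower (1.27 to 1.42).

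Ly6a was lower on day 10 both inside and outside: inside the 3 clusters it was 7.55-fold lower on day 10 (5.32 to 11.1), at 28.05 CPM on day 10 against 211.6 CPM on day 3, and outside them 5.28-fold lower (4.33 to 6.42), at 44.6 CPM against 235.7 CPM. The outside levels rest on 353 and 149 UMIs. The cluster led by Lyve1 held 167 Ly6a UMIs, 61 of day 6, 29 of day 10 and the rest from its 11 cells of day 3. On day 6 it had 193.4 CPM inside them, with a ratio to day 3 of 0.914 (0.748 to 1.11). The make-up of the 3 clusters differed between the days, with 55, 5 and 61 cells from those led by Dmkn, Slfn4 and Cd177 on day 10 and 336, 282 and 68 on day 3. Within the cluster led by Dmkn alone, Ly6a had 46.0 CPM on day 10 (29.5 to 68.5) against 273.7 CPM on day 3 (257 to 291.3), and Ly6c2 398.8 CPM against 788.4 CPM, 1.98-fold lower on day 10 (1.72 to 2.29). Ifitm6 had 536.9 CPM on day 10 and 524.3 CPM on day 3 in that cluster, with overlapping intervals. Within the cluster led by Cd177, Plac8 had 3353 CPM on day 10 against 2028 CPM on day 3, Ifitm6 1034 CPM against 772.6 CPM and Ly6c2 903.8 CPM against 784.6 CPM, while Ly6a had 10.6 CPM against 10.8 CPM. In that cluster Ly6c2 was detected in 54.1% of 61 thinned cells on day 10 (40.9 to 66.9%), above the dendritic-cell-like share of that day, and in the cluster led by Nos2 in 0.702% of 285.

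**Figure D5:**
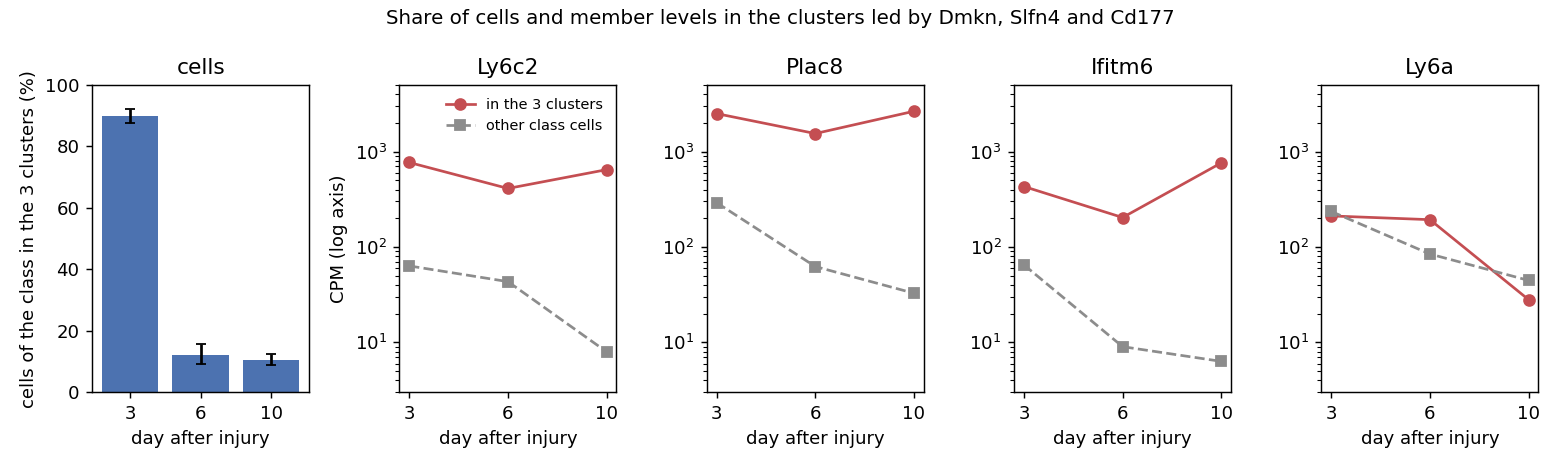
Percent of class cells of each day in the clusters led by Dmkn, Slfn4 and Cd177 (left, with 95% Clopper-Pearson intervals), and CPM of Ly6c2, Plac8, Ifitm6 and Ly6a (log axis) inside these clusters (red) and in the other cells of the class (grey). The share of cells was 10.6% on day 10 against 90.0% on day 3, the levels of Ly6c2 and Plac8 inside were near each other on these days (646.8 against 768.8 CPM and 2649 against 2502 CPM), and Ly6a was lower on day 10 in both.

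Outside the 3 clusters the levels of Ly6c2, Plac8, Ifitm6 and Ly6e, summed over the remaining clusters, were lower on day 10. Ly6c2 had 7.96 CPM on day 10 against 63.3 CPM on day 3 there, from 63 and 40 UMIs. Most of these day 3 UMIs came from few cells. The cluster led by Lyve1 held 63 Ly6c2 UMIs, 30 of day 6, 2 of day 10 and the rest from its 11 cells of day 3. Plac8 had 32.7 CPM on day 10 against 291.1 CPM on day 3 there, an 8.89-fold lower level (7.32 to 10.8), and Ifitm6 6.32 CPM against 64.9 CPM, 10.3-fold lower (6.62 to 15.8). Ly6e was 2.94-fold lower (2.70 to 3.21). The day 3 levels rest on 184 Plac8 and 41 Ifitm6 UMIs. The Pdgfb-led cluster held 329 Plac8 UMIs, 113 of day 6, 142 of day 10 and the rest from 16 day 3 cells. The Lyve1-led cluster held 161, of which 90 were of day 6, 11 of day 10 and the rest of day 3. Of 39 Ifitm6 UMIs in the Pdgfb-led cluster, 5 were of day 6, 10 of day 10 and the rest of day 3. The remaining cells came from different clusters on the 2 days, mostly those led by Nos2, Ctla2a and Gdf15 on day 10 (303, 225 and 203 cells), which held 4, 9 and 9 cells on day 3. The cluster led by Mmp12 alone had at least 20 cells on both days, 98 on day 10 and 27 on day 3. In it Plac8 was not lower, with 49.3 CPM on day 10 against 16.2 CPM on day 3, and Ly6c2 had 25.1 CPM against 16.2 CPM, each from 3 UMIs on day 3 and with a ratio whose interval holds 1. Ifitm6 had 11.6 CPM on day 10 against 37.8 CPM on day 3 in that cluster, from 12 and 7 UMIs, and Ly6e 236.9 CPM against 475.6 CPM. Ly6a had 8 UMIs on day 10 and 5 on day 3 there, under the 20 UMIs needed for a comparison.

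Ly6c1 UMIs came from few cells, and which cells they were differed between the days. Ly6c1 was found, unthinned, in 11, 13 and 15 class cells on day 3, day 6 and day 10, and 1 cell held 22 of the 53 UMIs on day 6 and 1 cell 11 of the 51 on day 10. An endothelial marker (Pecam1, Cdh5, Vwf, Kdr, Cldn5, Esam, Tie1 or Emcn) was detected in 1 of 11 Ly6c1+ cells on day 3, 6 of 13 on day 6 and 11 of 15 on day 10, the last being 73.3% (44.9 to 92.2%) beside 15.2% of the 1124 other class cells (13.2 to 17.4%). Ly6c2 was detected in 9 of the 11 Ly6c1+ cells on day 3, beside 67.0% of the other cells, and in 2 of 13 on day 6 and 3 of 15 on day 10. The 8 endothelial markers, none at 0, summed to 14.4, 55.5 and 59.2 CPM over the class on day 3, day 6 and day 10. Like Ly6c1 the sum was higher on both later days than on day 3, but on day 10 Ly6c1 was lower than on day 6 and the sum was not. The part of these markers in the level of Ly6c1 was not tested. By cluster, Ly6c1 was highest in those led by Nos2 (15.3 CPM) and Ctla2a (11.7 CPM), and of the 26 UMIs in the cluster led by Slfn4, 19 came from 1 cell.

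The other genes of the Ly6 family were nearly absent. Of 29 listed genes found among the counted genes, 2 had at least 20 UMIs over day 10 and day 3 together. Of all 31053 genes counted, 10757 reached that number. Plaur, the urokinase receptor of migrating leukocytes, was the one abundant relative, with 488.4, 309.3 and 249 CPM on day 3, day 6 and day 10 and a log2 ratio of -0.97 for day 10 against day 3. Of 5 relatives of Ifitm6 compared between day 10 and day 3, 4 were lower, where 11% of all genes were, and none was higher, with a median log2 ratio of -1.56. Ifitm3, a broad restriction factor for virus entry, had 5733, 1052 and 1279 CPM on day 3, day 6 and day 10, a log2 ratio of -2.17 for day 10 against day 3. Ifitm1 had 685.1, 78.9 and 232.8 CPM and Ifitm2 2330, 657.9 and 1030 CPM, and both were higher on day 10 than on day 6, by log2 ratios of 1.56 and 0.65, as Ifitm6 was.

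Among 18 other genes of monocyte entry, 10 were lower and 1 higher on day 10 than on day 3, where 11% and 27.3% of all genes were, with a median log2 ratio of -0.71 beside 0.18 over all genes. Ms4a4c (-3.70), Chil3 (-3.14), a chitinase-like protein, and Cd177 (-2.09) were among the genes with the largest log2 differences, and Fn1, fibronectin, was higher (0.93). Ccr2 had 869.5, 288.6 and 396.1 CPM on day 3, day 6 and day 10. All 18 genes of an interferon-response list were lower on day 10 than on day 3 (median -2.40), with Isg15 (-3.50), Rtp4 (-3.16), Irf7 (-3.15) and Zbp1 (-3.14) the largest, and 15 of 17 were lower on day 10 than on day 6, where 12.1% of all genes were (median -1.21), the interval between days in which Ifitm6 was higher and Ly6a lower. Of 12 genes of non-classical, patrolling monocytes, 2 were lower and 5 higher on day 10 than on day 3, not far from the 11% and 27.3% of all genes, and their median of 0.18 was that of all genes. Fabp4 (3.63) and Cx3cr1 (1.57), the fractalkine receptor, were higher and Nr4a1 (-1.30), a factor these monocytes need, was lower. Of 15 mature macrophage genes, 10 were higher and 1 lower (median 0.88), led by Tmem119 (3.39), Cd63 (2.73), C1qa (2.19) and C1qc (1.88), with the Fc receptor gene Fcgr1 (-2.13) lower.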

How the data were processed

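The deposited files hold raw UMI counts per gene and barcode, whole numbers that were not normalised. Per the labels' protocols, the authors isolated monocytes and macrophages from wounds, digested them enzymatically, loaded cells of over 70% viability on the 10x Chromium platform and sequenced on a HiSeq; per the submitters' processing notes, Cell Ranger 3.0.2 and mm10 were used. The sort gates and the annotation release are not given in the sources used here.

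Barcodes with at least 200 genes and under 10% mitochondrial UMIs were kept. All kept cells were clustered together, without batch integration (library and day are the same): 10000 counts per cell, log scale, 2000 variable genes ranked within library, 30 components, 15 neighbours, Leiden resolution 0.8 (scanpy 1.11.5, leidenalg 0.10.2, igraph 0.11.9, scikit-learn 1.9.0). A cluster was named monocyte/macrophage-like with at least 5 of 29 markers at 50 CPM or more and at or above all other cells; another class needed 3 of its markers at 50 CPM in 25% of cells at 4 times their level elsewhere. Where the 10 leading genes counted more markers of some different class, the cluster was left unnamed. That leading genes need 25% of cells was set after seeing the data. Of 2860 kept cells, 2342 were of the class, 265 dendritic-cell-like and 253 unnamed. Scrublet called 12, 6 and 5 doublets on day 3, day 6 and day 10, which were kept.

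Sums of UMIs per day are given as CPM. Intervals (95%) are exact Poisson for CPM, exact conditional binomial for a ratio and Clopper-Pearson for a share. A pair of days was compared for genes whose UMIs came to 20 or more, counts under 3 being set to 3. The method was tested on simulated counts. The members, gene lists, motifs and markers were chosen with earlier results of these data known. All 7 members are named; genes of other lists are named when at least 1.5-fold different with at least 20 CPM on 1 day, at most 4 in each direction, and Ccr2 was also named after its values were seen. Likeness uses 100 CPM in 1 cluster of at least 20 cells. Alternatives changed the cell filter, population, clustering, doublets, scaling, low-count limit and thinning depth. Some genes of the marker, entry and likeness lists are not reported here by name.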

Additional observations from a re-analysis of the deposited data

Results flagged for a closer look

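Within clusters made without the members, 3 members were higher on day 10 than on day 6 in at least 1 cluster of the class and lower in at least 1 other, counting differences of at least 1.5-fold whose interval leaves out a ratio of 1. The differences between clusters were not tested, and each day has 1 library. The same count over all genes is not given here, so this count cannot be read as particular to the members. Ly6c2 had a log2 ratio of 0.62 in the cluster led by Dmkn (398.8 CPM on day 10 against 259.3 CPM on day 6, from 55 and 20 cells, with 41 of the 63 UMIs of day 6 in 1 cell). Its log2 ratio was -1.54 in the cluster led by Nos2, -5.10 in that led by Ctla2a, -3.22 in that led by Gdf15 and -3.25 in that led by Lyve1. The low-level clusters rest on few cells: of 69 Ly6c2 UMIs on day 6 in the cluster led by Ctla2a 55 came from 1 cell, and of 30 in that led by Lyve1 28 came from 1 cell.

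Ly6c1 had a log2 ratio of -2.81 in the cluster led by Nos2, where 1 cell held 22 of 28 UMIs on day 6, and 2.75 in that led by Ctla2a, where 4 cells held the 30 UMIs of day 10. Plac8 had a log2 ratio of 1.17 in the cluster led by Mmp12, -1.08 in that led by Pdgfb and -2.96 in that led by Lyve1, where 1 cell held 49 of 90 UMIs on day 6.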

How the results depend on the processing

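The counts of members at least 1.5-fold lower on day 10 than on day 3 and on day 6 than on day 3 stayed at 6 under every alternative run. The count for day 10 against day 6, which was 2, was 1 without the cluster that has an interferon list gene among its leading genes. That alternative and the one that names and clusters the class without the members were chosen after seeing the data. No cluster had 2 or more genes of the interferon list used here among its leading genes, so leaving such clusters out could not be run. Leading genes outside that list were not counted. No direction of a member at least 1.5-fold different reversed. Against CPM, TMM and median-of-ratios factors subtracted 0.15 and 0.19 from the log2 ratio of every gene where day 10 was set against day 3, 0.27 and 0.29 where day 6 was, and -0.11 and -0.09 where day 10 was set against day 6. The share of cells with at least 4 members followed the depth per cell: for day 3, day 6 and day 10 it was 13.5%, 0.465% and 2.06% at 1000 UMIs, 49.5%, 4.53% and 7.95% at 4000 UMIs, 63.6%, 6.12% and 7.99% without thinning, and 7.69%, 0.252% and 1.52% with at least 2 UMIs asked of a member. With no cell filter it was 2.32% on day 10 and 22.8% on day 3, and without the interferon-led cluster 34.3% on day 3; the cause was not tested. The widest ranges of log2 ratios were those of Ifitm6, from -3.85 to -1.87 for day 6 against day 3, and of Ly6c1, from -2.29 to -0.48 for day 10 against day 6 and from 0.83 to 2.55 for day 10 against day 3. No paired analysis was possible because each day has 1 library. Pools of 2 mice and 441 class cells on day 6 limit what can be said of rare cells and of Ly6i and Ly6c1.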

Other observations

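Outside the monocyte/macrophage class, dendritic-cell-like cells led by Cd7, Klrd1 and Flt3 (274 cells in the clusters made without the members) carried most members but little Ly6c2. Plac8 had 1254, 614.6 and 496.8 CPM in them on day 3, day 6 and day 10, and Ly6a, which reached a higher level there than in the class, 658.8, 188.3 and 171.8 CPM. Ly6e had 1129, 655.5 and 428.1 CPM, while Ifitm6 had 495.5, 312.3 and 347.5 CPM and Ly6c2 79.0, 8.04 and 29.7 CPM. No Ly6c1 UMI was counted in these cells. Ly6a was thus at its highest on day 3 in these cells too, as in the class.

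An unnamed cluster of 163 cells led by Il1r2, the decoy receptor for interleukin 1, with Cd209a among its leading genes, also carried these members. Plac8 had 1330, 778.5 and 319.3 CPM on day 3, day 6 and day 10, Ly6a 638.3, 378 and 80.8 CPM, and Ifitm6 253.7, 180 and 295.9 CPM. The Ifitm6 intervals of day 10 (263.6 to 331.2) and day 3 (220.9 to 289.9) overlapped there, while in the cells led by Cd7 Ifitm6 was highest on day 3. A smaller unnamed cluster of 60 cells led by Retnla had Ifitm6 at 167 CPM with Ly6c2 at 1.93 CPM. Each of these values comes from 1 library a day.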
